A study of Mus musculus with 78 samples.

Results

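H3K27me3 domains without PRC2 peaks are stretches of the mouse genome that carried the Polycomb mark H3K27me3 in most libraries of the study. No peak of Bio-EZH1 or SUZ12, which are parts of the enzyme complex that writes the mark, was called over them. Peaks of these profiles are called PRC2 peaks here, and peaks of a further EZH1 profile, HA-EZH1, did not exclude a domain. A base was counted where at least 15 of the 18 H3K27me3 peak lists covered it, stretches up to 3 kb apart were joined, and joined stretches of 5 kb or more on chromosomes 1 to 19 were kept. Of the 7799 domains found in this way, 577 (7.40%) were overlapped by no peak of any of the 36 Bio-EZH1 and SUZ12 lists, and the other 7222 had a peak of at least 1 of these lists. Because 3 lists may be missing under this rule, a domain can lack H3K27me3 at a whole time point, and the values below show that 12 h was often that time point.

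The data were peak lists from chromatin immunoprecipitation sequencing (ChIP-seq) of C2C12 cells, mouse muscle precursors grown into multinucleate myotubes, synchronized by a 1 h shock with 50% horse serum. Lists of 4 profiles (H3K27me3, Bio-EZH1, SUZ12 and HA-EZH1) at 12, 16, 20, 24, 28 and 32 h after the shock, with 3 biological replicates each, gave 72 lists. Bio-EZH1 is EZH1α carrying a biotin tag, pulled down with streptavidin from myotubes in which the cell's own Ezh1 was knocked down by a short hairpin RNA and EZH1α-Avi and the biotin ligase BirA were brought in by retrovirus. By the study's methods, SUZ12 was precipitated from that same line, both profiles used a protein cross-linker before formaldehyde, and H3K27me3 chromatin of C2C12 cells was fixed with formaldehyde alone. The labels name C2C12 for every profile and give no construct for the HA-EZH1 cells. Where a domain has the mark without a PRC2 peak, the line and the fixation therefore cannot be told apart from the profile.

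PRC2 is the complex that methylates lysine 27 of histone H3, with EZH1 or EZH2 as the catalytic subunit and SUZ12 as a core subunit that the enzyme needs. It is recruited mainly at CpG-rich gene starts, where it and the mark keep developmental genes silent, and the mark spreads from such sites into the surrounding chromatin. EZH1 is the form that prevails in cells that no longer divide, such as muscle fibres.

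The sequences show the kind of DNA that the domains held, in lower case with each CpG dinucleotide in capitals. The longest domain with a protein-coding start inside lay on chromosome 4 at chr4:138756423-138792732 and held the starts of Pla2g2f and Pla2g2d, which encode secreted phospholipases A2. Their promoters (250 bases before the start to 50 after, from RefSeq on GRCm38.p6, the assembly of mm10) lay at chr4:138757549-138757848 on the minus strand and chr4:138775485-138775784 on the plus strand, and each had 5 CpG in 300 bases.
Pla2g2f promoter: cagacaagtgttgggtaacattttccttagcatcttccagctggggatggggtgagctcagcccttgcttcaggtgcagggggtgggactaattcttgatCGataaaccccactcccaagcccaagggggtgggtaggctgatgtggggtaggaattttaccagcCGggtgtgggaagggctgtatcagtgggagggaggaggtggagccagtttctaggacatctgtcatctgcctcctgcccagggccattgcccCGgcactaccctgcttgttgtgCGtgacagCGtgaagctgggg
Pla2g2d promoter: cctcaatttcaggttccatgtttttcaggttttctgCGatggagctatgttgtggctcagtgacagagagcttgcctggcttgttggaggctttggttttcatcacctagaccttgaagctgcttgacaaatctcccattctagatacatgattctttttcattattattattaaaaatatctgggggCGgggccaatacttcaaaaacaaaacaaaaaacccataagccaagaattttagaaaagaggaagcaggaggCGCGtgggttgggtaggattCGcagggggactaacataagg
The longest domain of all without PRC2 peaks lay inside Dscaml1, a neural adhesion gene on chromosome 9, and its central 300 bases (chr9:45628591-45628890, plus strand, RefSeq GRCm38.p6) had 3 CpG.
Dscaml1 domain centre: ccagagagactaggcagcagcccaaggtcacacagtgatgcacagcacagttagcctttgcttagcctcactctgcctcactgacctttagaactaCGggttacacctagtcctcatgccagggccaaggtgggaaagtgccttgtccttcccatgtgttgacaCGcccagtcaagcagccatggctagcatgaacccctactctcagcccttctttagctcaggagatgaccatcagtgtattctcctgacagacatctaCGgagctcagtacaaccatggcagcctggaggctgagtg
For comparison, the longest domain with PRC2 peaks was 326144 bp on chromosome 1 at chr1:132511654-132837797 and had a peak in all 36 PRC2 lists. Nfasc, which encodes the neural adhesion protein neurofascin, starts in it, and the RefSeq promoter nearest to the end of its gene record (chr1:132707277-132707576, minus strand) had 7 CpG.
Nfasc promoter: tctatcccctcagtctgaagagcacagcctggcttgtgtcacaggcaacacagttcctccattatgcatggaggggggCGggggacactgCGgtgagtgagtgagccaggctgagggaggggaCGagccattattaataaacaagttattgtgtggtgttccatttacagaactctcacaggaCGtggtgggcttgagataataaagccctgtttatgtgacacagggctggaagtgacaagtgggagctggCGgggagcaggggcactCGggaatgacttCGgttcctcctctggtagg
Of the 63 protein-coding starts in domains without PRC2 peaks, 48 matched a RefSeq promoter by symbol, and these had a median of 4 CpG in 300 bases. Starts in domains with PRC2 peaks, of which 1479 of 1972 matched, had a median of 10, and all 31396 RefSeq promoters of chromosomes 1 to 19 had a median of 7. At least 15 CpG were found in 2 of the 48 promoters (4.17%) in domains without PRC2 peaks, in 41.1% of the promoters in domains with PRC2 peaks and in 35.2% of all promoters.

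The 577 domains covered 5.97 Mb, 4.43% of the bases of all H3K27me3 domains and 0.243% of chromosomes 1 to 19. Their length ranged from 5020 to 56186 bp with a median of 8165 bp, and 204 were 10 kb or longer, 48 were 20 kb or longer and 14 were 30 kb or longer. Domains with PRC2 peaks had a median of 11355 bp, and 24.7% of them, against 8.32% of the domains without, reached 20 kb. Domains with 1 to 17 PRC2 lists were of similar length to those without, with a median of 8364.5 bp and 8.39% at 20 kb or more. Stretches up to 3 kb apart were joined, and the bases present in 15 or more lists made up a median of 75.9% of a domain without PRC2 peaks and 88.2% of one with them. At the length limit, the shortest domains without PRC2 peaks had 5020, 5028 and 5032 bp, and the longest stretches just outside had 4999, 4998 and 4987 bp. A total of 184 stretches of 4 to 5 kb without PRC2 peaks were left out by this limit. At the limit on lists, 644 domains without PRC2 peaks were found with 14 or more H3K27me3 lists and 300 with 16 or more. Just outside the limit on PRC2 peaks stood 249 domains overlapped by 1 of the 36 lists, which was a SUZ12 list in 182 and a Bio-EZH1 list in 67, and the peak covered a median of 440 bp. The shortest such overlap was 73 bp, in a domain of 6209 bp over Mgat4a, a glycosyltransferase gene. Nearest to a PRC2 peak from inside the limit was a domain of 5378 bp over Mgat5, also a glycosyltransferase gene, at 68 bp.

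PRC2 peaks were not far away in general. The nearest SUZ12 peak of any list lay at a median of 16.9 kb from a domain, and the nearest Bio-EZH1 peak at a median of 26.4 kb. A peak of either profile lay within 5 kb of 79 domains (13.7%) and over 100 kb away from 33, with a largest distance of 197 kb. Another H3K27me3 domain of either kind lay within 10 kb of 330 of the 577 domains (57.2%), against 48.8% of domains with PRC2 peaks, so that many were neighbours of a further marked stretch beyond the joining distance.

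Lists of PRC2 peaks were graded rather than present or absent, and the domains without any peak were set beside those with peaks of 1, 2 to 5, 6 to 17, 18 to 35 or all 36 lists. Without a PRC2 peak, 45.1% of domains lay inside a single protein-coding gene, and this share was 45.4% with 1 list, 39.7%, 33.3% and 29.8% with 2 to 5, 6 to 17 and 18 to 35 lists, and 16.3% with all 36. Density of protein-coding gene starts was 10.5 per Mb without PRC2 peaks, between 8.75 and 12.0 per Mb with 1 to 35 lists and 21.4 per Mb with all 36, while chromosomes 1 to 19 had 8.45 per Mb. Over all lengths, the density without PRC2 peaks was thus within the range of the domains with 1 to 35 lists and above that of the chromosomes, and the domains with all 36 lists stood apart. Length differed as well, with medians of 8029 to 8546 bp with 0 to 17 lists, 12042 bp with 18 to 35 and 20741 bp with all 36. The part of length in these values was not tested. No test was run between these groups, since regions are not replicates and the lists chose the groups.

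**Figure D1:**
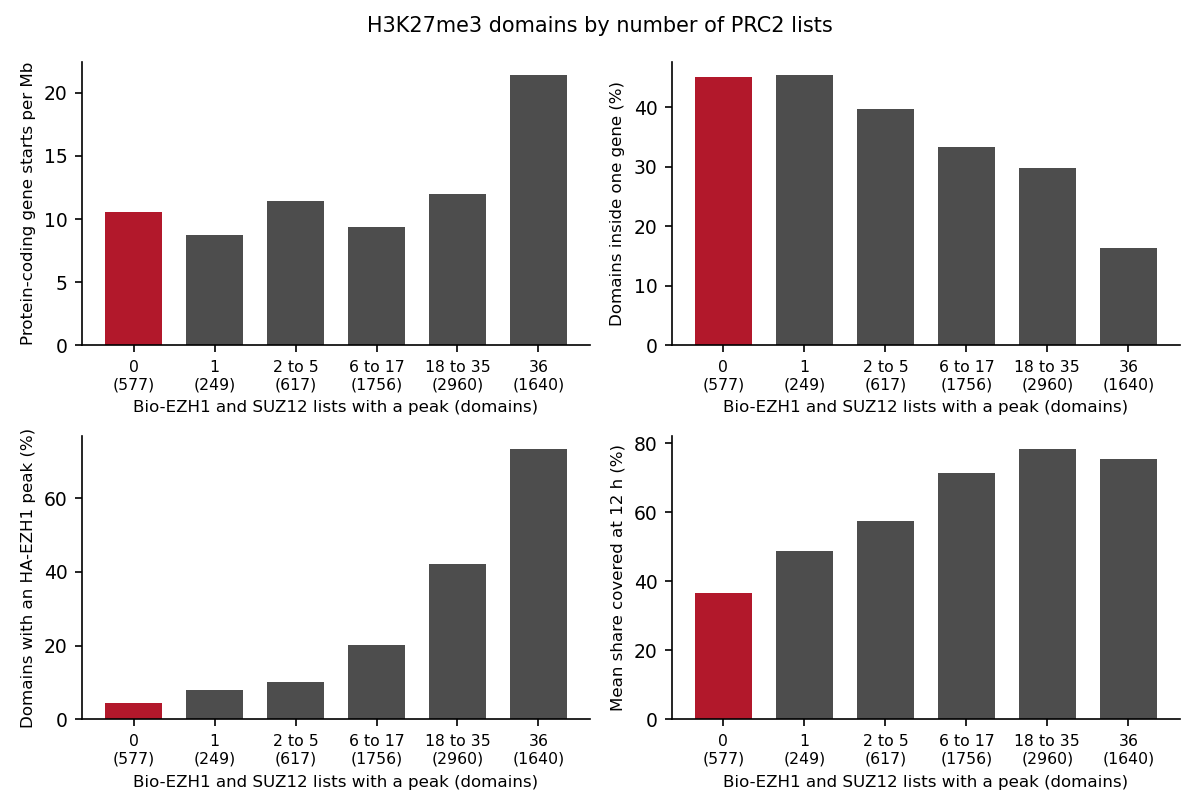
H3K27me3 domains grouped by the number of Bio-EZH1 and SUZ12 lists with a peak over them, with the number of domains in parentheses; bars give protein-coding gene starts per Mb, the percent of domains inside a single gene, the percent with an HA-EZH1 peak and the mean percent of a domain covered by H3K27me3 peaks at 12 h. Domains without PRC2 peaks (red) had 10.5 starts per Mb, 45.1% inside a single gene, 4.51% with an HA-EZH1 peak and 36.6% coverage at 12 h, against 21.4 per Mb, 16.3%, 73.3% and 75.3% where all 36 lists had a peak.

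Over all lengths, gene starts were less dense than in all domains with PRC2 peaks together. They were denser than in domains with 1 to 17 PRC2 lists together (9.79 per Mb) and in the chromosomes (8.45 per Mb). Domains with 2 to 5 lists had a higher density (11.4 per Mb). A protein-coding start lay in 54 domains (9.36%), against 9.76% of domains with 1 to 17 PRC2 lists and 23.1% of all domains with PRC2 peaks, and the density of starts was 0.690 times that of domains with PRC2 peaks (15.3 per Mb). In domains of 5 to 10 kb the densities were 7.82 per Mb without and 18.7 per Mb with PRC2 peaks, in those of 10 to 20 kb 12.1 and 16.7 per Mb, and in those of 20 kb or more 13.3 and 13.6 per Mb, so that the gap was found in the shorter domains. Domains with 1 to 17 PRC2 lists had 11.3, 9.04 and 8.34 per Mb in these bands. In the shortest band, domains without PRC2 peaks were thus below these and below the 8.45 per Mb of the chromosomes. A protein-coding gene body was overlapped by 339 domains (58.8%), close to the 57.5% of domains with PRC2 peaks, and 54.2% of their bases lay in protein-coding genes against 47.7% in domains with PRC2 peaks and 40.3% of chromosomes 1 to 19. Exons took 3.94% of the bases without PRC2 peaks, 5.06% with them and 3.76% of the chromosomes. The median distance to the nearest protein-coding start was 50.4 kb, against 18.5 kb for domains with PRC2 peaks, and 178 domains (30.8%) were more than 100 kb from any, against 15.3%. Domains with 1 to 17 PRC2 lists lay between, with a median of 33.1 kb and 20.3% at more than 100 kb. Around the domains themselves genes were as dense as around the others, with a median of 11 protein-coding starts in a window of 1 Mb in both groups.

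Host genes were long. For each domain the protein-coding gene with the longest overlap was taken. Counted per domain, its median length was 176 kb without PRC2 peaks and 67.0 kb with them. For domains with 1 to 17 PRC2 lists it was 96.8 kb, and for those with 18 to 36 lists 58.2 kb. Counted per gene, genes that enclosed a whole domain had medians of 160 kb without PRC2 peaks and 82.6 kb with them. The median of all protein-coding genes of chromosomes 1 to 19 was 17.6 kb. Longer genes offer more room for a domain, and the part of length in this difference was not tested. Within the host gene the domains were spread along its length, with quartiles of position at 28.8% and 75.1% of the way from its start. Of the 154 genes that enclosed a whole domain without PRC2 peaks, 113 (73.4%) had H3K27me3 within 1 kb of their start in 15 or more lists, and 96 (62.3%) had a PRC2 peak there in at least 1 list. Those that enclosed a domain with PRC2 peaks numbered 1097, with 59.3% and 64.4%, and among all 2369 protein-coding genes of 100 kb or more the shares were 22.2% and 40.2%. The start of a host gene was thus often marked, and often had a PRC2 peak, while the domain inside the gene had the mark without a peak.

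Some genes held several of the domains. Of 212 host genes, 65 held 2 or more and 12 held 4 or more, and these genes were singled out after their counts were seen. Fstl4, of the follistatin-like family, held 9 domains of 5188 to 40016 bp over 309 kb of its 424 kb on chromosome 11 (chr11:52764634-53188538, plus strand). Its start had H3K27me3 in 18 lists, Bio-EZH1 in 18 and SUZ12 in 13, and 2 further domains with PRC2 peaks had it as their host gene. Atp2b2, a calcium pump of the plasma membrane, held 7 domains, and its start had H3K27me3 in 17 lists, Bio-EZH1 in 1 and SUZ12 in 3. Tspear and Asic2, the second of which encodes an acid-sensing ion channel, held 6 domains each and had H3K27me3, Bio-EZH1 and SUZ12 at their starts in all lists. Slit3, a secreted axon guidance ligand, also held 6, but its start had H3K27me3 in 1 list with Bio-EZH1 in 17 and SUZ12 in 7. Camta1, a transcription activator, held 5 domains, and its start had no peak in any list of the 3 profiles. Vstm4 held 5 and Igsf21 5, the first with H3K27me3 in 18 lists and no PRC2 peak at its start, the second with H3K27me3 in 18, Bio-EZH1 in 17 and SUZ12 in 7. Domains with PRC2 peaks also had these genes as hosts, 14 in Asic2, 13 in Camta1, 6 in Slit3 and 5 in Atp2b2. Tspear and Igsf21 had 1 each and Vstm4 had 0. Asic2 and Camta1 thus hosted more domains with PRC2 peaks than without. Hence starts with and without PRC2 peaks were both found among the genes that held most of the domains.

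Part of the domains lay in runs. When domains without PRC2 peaks within 100 kb of each other were linked, 367 of them fell into 110 runs and 210 stood alone, and 30 runs of 4 or more held 185 of them. Neighbours of their own group within 100 kb were more common among the more numerous other domains, with 2304 of the 2622 domains with 1 to 17 PRC2 lists and 6273 of the 7222 with any. The run with the most domains, 13 over 358 kb (chr14:32637997-32996127), passed over Prrxl1, Tmem273, Fam170b, Vstm4 and Wdfy4. Runs of 9 were found over Fstl4, over Parvg, Shisal1 and Rtl6 on chromosome 15 (chr15:84337752-84629394), and on chromosome 4 outside host genes (chr4:123998002-124311535). By chromosome, the share of H3K27me3 domains without PRC2 peaks was highest on chromosome 4, with 71 of 514 (13.8%), followed by chromosome 11 with 59 of 542 (10.9%), and lowest on chromosome 19, with 4 of 254 (1.57%), and chromosome 3, with 10 of 357 (2.80%). Along the chromosome their median position was 71.4% of its length from the centromeric end, against 55.8% for domains with PRC2 peaks. Within 5 Mb of the distal end lay 6.76% of the domains without PRC2 peaks, 4.65% of those with them and 3.86% of chromosomes 1 to 19.

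**Figure D2:**
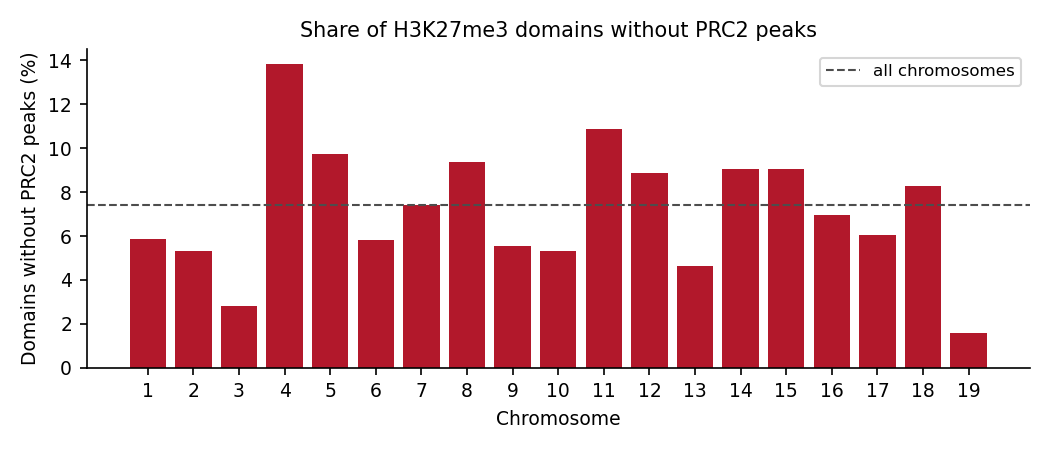
Percent of the H3K27me3 domains of each chromosome that had no PRC2 peak (bars), with the percent over chromosomes 1 to 19 (7.40%, dashed line). Chromosome 4 had the highest share (13.8%) and chromosome 19 the lowest (1.57%).

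The base composition of the domains set them apart from the chromosomes more than from each other. GC content was 48.4% in domains without PRC2 peaks, 46.3% in domains with them and 41.9% over chromosomes 1 to 19. CpG occurred 12.3 times per kb without PRC2 peaks, 12.1 times with them and 8.51 times in the chromosomes, and outside repeats 13.5, 13.8 and 9.64 times. Bases marked as repeats in the genome file made up 19.5% of the domains without PRC2 peaks, 24.2% of those with them and 33.5% of the chromosomes.

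The gene families chosen for this report were seldom marked at their starts by domains without PRC2 peaks. Starts of 63 of the 20780 protein-coding genes (0.303%) lay in such domains and 9.49% in domains with PRC2 peaks. Of the 140 Hox and other homeobox genes, which specify body plan and cell type, 0 started in a domain without PRC2 peaks and 81 (57.9%) in a domain with them, and 1 of them, Lmx1a, was overlapped by a domain without PRC2 peaks. The 76 forkhead, Sox and T-box genes, also developmental regulators, had 0 and 29 (38.2%). Of 126 potassium, sodium and calcium channel genes, 0 started in a domain without and 48 (38.1%) in a domain with PRC2 peaks, but 8 (6.35%) were overlapped by domains without PRC2 peaks, among them Kcnq1, Scn11a and Kcnd3. All protein-coding genes had 1.14% overlapped in this way. Domains with PRC2 peaks overlapped 71 of the channel genes (56.3%) and 14.7% of all protein-coding genes, so that such overlaps were not particular to domains without PRC2 peaks. Glutamate and GABA receptor genes, which encode neurotransmitter receptors, had 3 of 41 overlapped by domains without PRC2 peaks (Grik4, Grik3 and Grid1) and 0 starts in them. Domains with PRC2 peaks overlapped 11 of the 41. Collagen and matrix genes had 7 of 99 overlapped by domains without PRC2 peaks, among them Col4a2, Col6a2 and Col13a1, against 37 by domains with them. Col6a2 started in a domain without PRC2 peaks. Neural adhesion genes had 2 of 49 overlapped by domains without PRC2 peaks, Dscaml1 and Csmd2, against 11 by domains with them. Cadherins had 1 of 39, Cdh4, against 9. Further overlaps were found for 5 of 372 solute carriers (Slc22a2, Slc35f3 and Slc6a3 among them), 4 of 410 zinc finger genes (Zfp423, Zfp641 and Zfp536 among them), 3 of 127 adhesion and other G protein-coupled receptors (Adra1a, Gpr61 and Gpr132), 2 of 110 keratins and 1 of 103 cytokines (Il21r). Olfactory receptors, expressed in the nose, had 3 starts in 1127 genes (Olfr314, Olfr1342 and Olfr317) and 6 overlaps. Starts in domains without PRC2 peaks were also found for Gpr61, Gpr132, Slc22a2, Krtap10-4 and Il21r. Of 21 clock genes 1 was overlapped, Rora, a nuclear receptor that activates Bmal1, and 0 started in such a domain. The lists of vomeronasal receptors (326 genes), taste and trace amine receptors (53), clustered protocadherins (56), C-type lectin and immune receptors (87), serpins (60), cytochrome P450 genes (99), muscle structure genes (34) and housekeeping genes (14) had 0 starts and 0 overlaps.

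The labelled cell type was checked with the starts of marker genes. Of 10 muscle genes, 6 had no H3K27me3 list within 1 kb of the start, among them Myog, Tnnt1 and Myod1, which drive or build muscle, but Ckm had the mark in 18 lists, Acta1 in 14 and Myh3 in 6. Genes of other lineages on chromosomes 1 to 19, such as Pax6 and Sox1, numbered 9 and had the mark in 15 to 18 lists. None of these 19 genes was overlapped by a domain without PRC2 peaks.

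Over time, the mean share of a domain covered by H3K27me3 peaks was lower at 12 h than at every later time point, though not in the domains of lowest GC content. The rule chose the domains by coverage in these same 18 lists and lets 3 be missing, which holds later coverage near full, so that the values over time are a description. Mean coverage of a domain by H3K27me3 peaks was between 86.2% and 95.8%, with a median of 93.6%, in the 15 libraries of 16 to 32 h, and 35.6%, 36.6% and 37.5% in the 12 h libraries. The 12 h libraries were thus all below the lowest later one, and the gap exceeded the spread between replicates, which had SDs of 0.576 to 1.48 percentage points per time point (n = 3). Domains with PRC2 peaks had between 85.4% and 96.7% later, and 72.8%, 73.0% and 73.5% at 12 h. The time point means of domains without PRC2 peaks were 36.6% ± 0.981 for 12 h, 95.0% ± 0.679 for 16 h, 88.8% ± 1.48 for 20 h, then 94.3% ± 0.596 for 24 h, 93.9% ± 0.576 for 28 h and finally 87.6% ± 1.35 for 32 h (± SD over 3 libraries). From 16 h on, both groups had similar coverage.

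**Figure D3:**
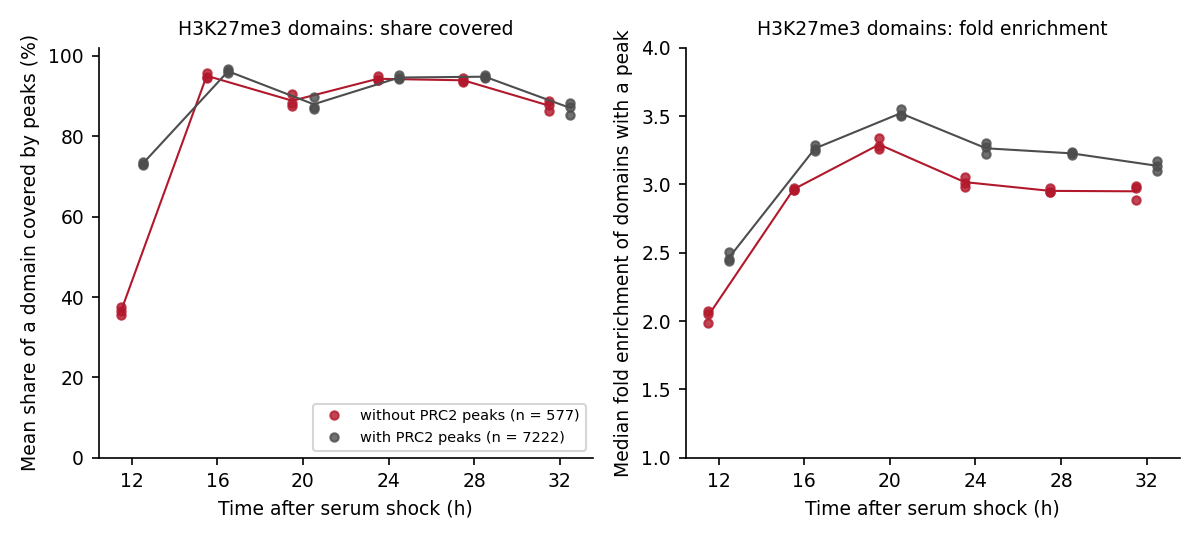
H3K27me3 in domains without (red, left of each time) and with (grey, right) PRC2 peaks at 6 times after the serum shock; points are the 3 libraries of a time and lines join their means. At 12 h the mean share of a domain covered by peaks was 36.6% without and 73.1% with PRC2 peaks, and the median fold enrichment was 2.04 and 2.47.

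The 12 h lists were not short of peaks. The later lists held 37976 to 42834 peaks on chromosomes 1 to 19 over 174 to 241 Mb, and the 12 h lists held 55637 to 61391 peaks over 201 to 228 Mb. Peaks of 12 h were shorter, with a median length of 1709 to 1939 bp per list against 1943 to 2499.5 bp later. Their median fold enrichment was also lower, 2.145 to 2.26 against 2.48 to 2.93. No peak at all was called over 0 or 1 of the 577 domains in each later library, and over 158, 131 and 136 in the 12 h libraries, and 103 domains (17.9%) had none in any of the 12 h libraries, against 1.97% of domains with PRC2 peaks. At 12 h, 180 domains without PRC2 peaks were covered for less than 10%, 334 for 10 to 90% and 63 for more than 90%. The share of domains with no 12 h peak was 11.2% with 1 PRC2 list, 6.48% with 2 to 5, 2.96% with 6 to 17, 0.642% with 18 to 35 and 0.183% with all 36.

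GC content moved with this difference. Domains without PRC2 peaks that had under 44% GC were covered for a mean of 82.5% at 16 to 32 h and 85.1% at 12 h. Coverage at 16 to 32 h was 89.4% at 44 to 48% GC, 94.6% at 48 to 52% and 97.3% at 52% or more, while at 12 h it was 57.3%, 17.2% and 5.18% in these bands. Domains with PRC2 peaks showed the same order, with 94.2%, 76.4%, 45.5% and 30.2% at 12 h from the lowest to the highest band. In each band the 12 h coverage was lower without than with PRC2 peaks. Domains with 1 to 17 PRC2 lists lay between in each band, with 92.2%, 70.2%, 30.1% and 7.55% at 12 h. In the highest band they were thus close to the 5.18% of domains without PRC2 peaks. The part of GC content in the 12 h values was not tested.

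**Figure D4:**
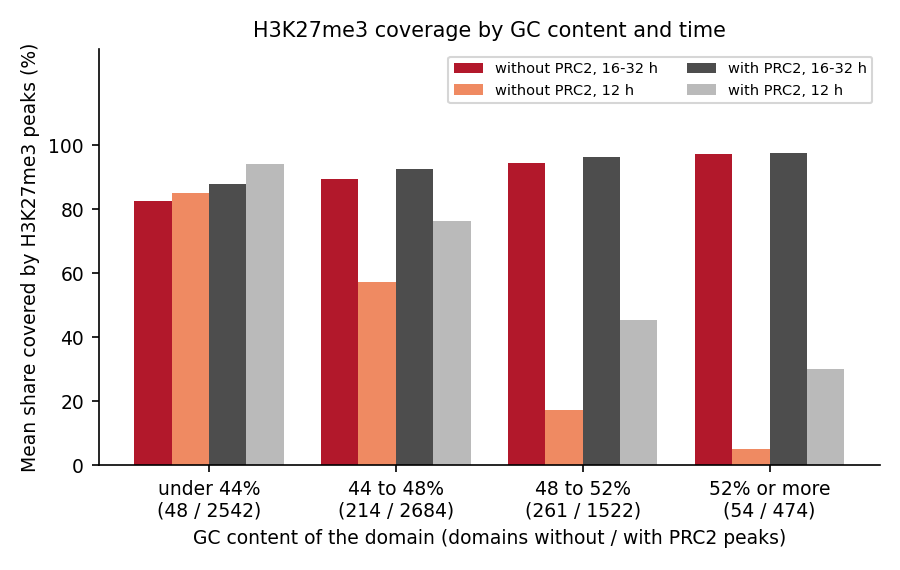
Mean percent of a domain covered by H3K27me3 peaks in 4 bands of GC content, for domains without PRC2 peaks at 16 to 32 h and 12 h (red and orange) and with PRC2 peaks at 16 to 32 h and 12 h (dark and light grey), with the number of domains in each group in parentheses. At 16 to 32 h every bar is above 80%, and at 12 h the bars fall from 85.1% and 94.2% in the lowest band to 5.18% and 30.2% in the highest.

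Each domain was tested with limma on its share covered, in a fit over all 7799 domains that was chosen after the data had been seen, with Benjamini-Hochberg adjustment. Because the rule used these coverage values, the counts describe the domains and nothing is read from them. Coverage was higher at 16 to 32 h than at 12 h in 465 of the 577 domains without PRC2 peaks (80.6%, adjusted p under 0.05), where 54.4% of all domains were called so, and it was lower in 16 (2.77%), against 10.2% of all. The count of lower domains was 7 without replicate 1 and 10 without replicate 3 of 12 h. The median difference was 64.9 percentage points in domains without PRC2 peaks and 9.50 in domains with them, and relative to domains of the same GC content in the same library it was 15.8 and -2.32. On that GC-centred scale, 327 (56.7%) were higher and 61 (10.6%) lower, against 24.4% and 29.5% of all domains.

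Fold enrichment, which relates the reads of a peak to a local background that the peak caller models, gave a less even picture. The median over domains without PRC2 peaks was between 2.89 and 3.34 later and 1.99, 2.08 and 2.05 at 12 h, against 3.10 to 3.55 later and 2.44 to 2.51 at 12 h in domains with PRC2 peaks. The fit is on the libraries that the rule used, and these values come only from libraries with a peak over the domain, which leaves out the weakest 12 h values, and the 103 domains without a 12 h peak could not be fitted. Log2 fold enrichment was centred on the median of all domains of a library. In limma's F test, 439 of the 474 fitted domains (92.6%) differed among the 6 time points, where 96.1% of all 7554 fitted domains did. These shares were close, and since the 103 domains without a 12 h peak are left out, nothing is read from the count. At 16 to 32 h against 12 h, 295 (62.2%) were higher and 105 (22.2%) lower, against 45.2% and 43.1% of all, with a median difference of 0.20 on the log2 scale. Without centring 461 (97.3%) were higher and 0 lower, against 85.7% and 2.78% of all (limma, 0 lower at an unadjusted p under 0.05), and the median difference was then 0.62 in domains without PRC2 peaks and 0.42 over all domains. Relative to domains of the same GC content the direction turned, with 86 (18.1%) higher and 199 (42%) lower, against 34.8% and 29.4% of all, and a median difference of -0.06. No direction of the centred fold enrichment is therefore given for these domains as a group. Among the later time points alone, 432 of 577 (74.9%) differed, against 80% of all.

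The domains with the smallest adjusted p in each direction of the centred difference are described next. They were picked by these p-values, from libraries that the rule had used. The p-values therefore only rank the domains, and nothing is read from them. Over the end of Tap2, which encodes a subunit of the peptide transporter of antigen presentation, a domain of 7418 bp (chr17:34211764-34219181) had a fold enrichment between 5.27 and 6.67 at 16 to 32 h, with a median of 5.79, and 1.94, 1.66 and 1.79 at 12 h. Its centred difference was 1.29 ± 0.036 (SE, limma adjusted p = 3.56e-16). At the start of Disp3, a domain of 6536 bp on chromosome 4 had between 3.83 and 4.73 later and 1.61, 1.62 and 1.59 at 12 h (difference 0.98 ± 0.028, limma adjusted p = 6.42e-16). The intergenic domain of 34467 bp near Mpped1 on chromosome 15 had between 3.25 and 3.97 later and 1.65, 1.704 and 1.69 at 12 h (0.69 ± 0.021, limma adjusted p = 1.23e-15). In these 3 domains every later library was above every 12 h library. Relative to domains of the same GC content the differences were smaller, 0.69 at Tap2, 0.17 at Disp3 and 0.09 near Mpped1.

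In the other direction the raw values overlapped. Inside Galnt14, a glycosyltransferase gene on chromosome 17, a domain of 12308 bp had between 2.57 and 2.98, with a median of 2.69, at 16 to 32 h and 2.70, 2.80 and 2.72 at 12 h. Its centred difference was -0.42 ± 0.027 (SE, limma adjusted p = 4.94e-11), and without centring the difference was -0.01. An intergenic domain of 13854 bp near Nefm on chromosome 14 had between 2.62 and 3.12 later and 2.69, 2.64 and 2.50 at 12 h (-0.35 ± 0.022, limma adjusted p = 6.9e-11), and without centring the sign turned, to 0.07. Inside Ptpn20, a tyrosine phosphatase gene, the values of a domain of 6141 bp were between 2.41 and 3.06 later and 2.66, 2.64 and 2.93 at 12 h (-0.46 ± 0.032, limma adjusted p = 2.14e-10), with -0.05 without centring. These domains had 44.1%, 42.0% and 41.2% GC, below the 54.9%, 50.9% and 50.8% of the domains at Disp3, Tap2 and near Mpped1.

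The 12 longest domains without PRC2 peaks were 31.7 to 56.2 kb long and 10 of them touched a protein-coding gene. Dscaml1 enclosed the longest, of 56186 bp (chr9:45600648-45656833), with coverage between 88.7% and 100% at 16 to 32 h and of 48.7%, 57.4% and 63.4% at 12 h. Its nearest SUZ12 peak was 6.42 kb away and its nearest Bio-EZH1 peak 22.3 kb. Over the end of Efcab6, a domain of 52667 bp (chr15:83862579-83915245) was covered for 92.1% to 100% later and for 4.14%, 7.53% and 5.02% at 12 h. Of all the 12, this domain and the one over Trpm2, Lrrc3 and Tspear had the lowest 12 h coverage. Reaching past the end of Fgf18, a fibroblast growth factor gene, a domain of 48693 bp (chr11:33074177-33122869) had 91.2% to 100% later and 34.0%, 27.8% and 38.9% at 12 h. The longest of the 9 Fstl4 domains, 40016 bp, was 81.2 kb from a SUZ12 peak and 174 kb from a Bio-EZH1 peak, and had 91.4% to 100% later and 26.7%, 36.5% and 36.6% at 12 h.

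The Pla2g2f and Pla2g2d domain, whose promoters are printed above, was 36310 bp long, with 86.2% to 100% coverage later and 36.3%, 48.0% and 28.6% at 12 h. Inside Tspear, a domain of 35289 bp held the starts of 5 predicted genes (Gm7137, Gm9639, Gm19668, Gm9507 and Gm2696), the most of any domain, and had 85.1% to 100% later and 12.2%, 9.28% and 18.3% at 12 h. Repeats made up 35.2% of it. Kit, the receptor of stem cell factor, enclosed a domain of 35080 bp (chr5:75607123-75642202) with 79.6% to 100% later and 55.8%, 41.2% and 47.6% at 12 h. Both Bio-EZH1 and SUZ12 peaks were 31.4 kb from it, at a distance similar to that of the Kit start (32.2 kb).

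Of the remaining long domains, 2 were intergenic. The one near Mpped1 had 88.7% to 100% later and 26.9%, 16.0% and 19.8% at 12 h. That of 34175 bp on chromosome 5 (chr5:106091322-106125496), 215 kb from the nearest protein-coding start, that of Zfp326, was the only 1 of the 12 whose libraries overlapped, with 73.4% to 100% later and 69.2%, 77.4% and 72.7% at 12 h. Wdfy4, which held Lrrc18 inside its body, enclosed a domain of 33565 bp with 80.9% to 100% later and 45.7%, 48.0% and 41.4% at 12 h. Over Trpm2, a cation channel gene, with the start of Lrrc3, a domain of 33252 bp had 83.3% to 100% later and 1.62%, 10.8% and 0% at 12 h. Grik4, a kainate receptor subunit, enclosed 31668 bp with 89.2% to 100% later and 32.0%, 19.9% and 32.0% at 12 h.

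**Figure D5:**
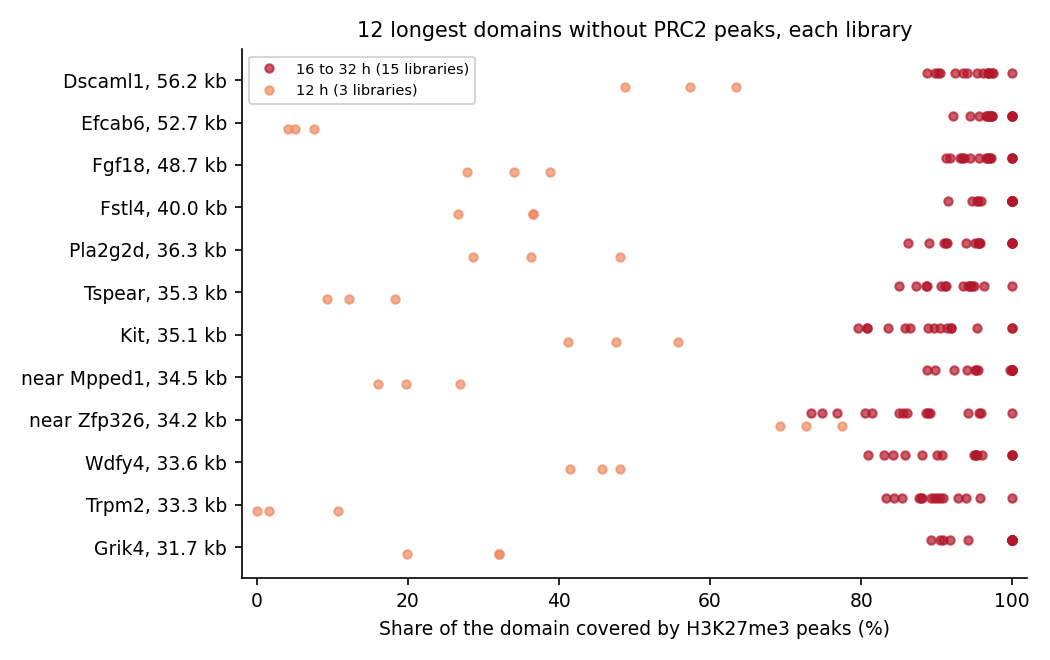
Percent of each of the 12 longest domains without PRC2 peaks that H3K27me3 peaks covered in each library at 16 to 32 h (red, 15 libraries) and 12 h (orange, 3 libraries), named by the gene they overlap most or the nearest start. In 11 of the 12 every later library is above every 12 h library, and the domain near Zfp326 is the exception.

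Averages over the domains of a host gene differed between genes, and the domains of a gene also differed among themselves. Fstl4 domains averaged 92.5% to 99.4% at 16 to 32 h and 34.3%, 34.0% and 37.8% at 12 h. Igsf21 domains, of 51.3% GC, averaged 88.6% to 100% later and 7.27%, 4.72% and 7.48% at 12 h, where 4 of the 5 had no 12 h peak and the other had a mean of 32.4%. Asic2 domains, of 46.2% GC, averaged 76.5% to 97.4% later and 69.8%, 73.1% and 69.2% at 12 h. In the run of 13 on chromosome 14 the averages were 85.1% to 98.5% later and 41.1%, 47.5% and 52.6% at 12 h.

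Besides the domains in Tspear and at Pla2g2f, those with most protein-coding starts were 3. A domain of 12168 bp inside Tspear held Gm3238, Gm7138 and Gm3250 and had 81.1% to 100% coverage later and 0%, 0% and 4.27% at 12 h. One of 13793 bp on chromosome 7 (chr7:44207239-44221031) held Klk1b4 and Klk1b5, of the kallikrein protease family, and had 82.7% to 100% later and 5.68%, 39.8% and 34.3% at 12 h. Another of 13755 bp on chromosome 7 held Gm29735 and Gm4553, with 100% in every later library and 40.5%, 58.4% and 57.1% at 12 h. How reads map among similar genes of these families was not tested.

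HA-EZH1 lists, which the rule did not use, had few peaks in the domains. A peak of at least 1 of the 18 HA-EZH1 lists overlapped 26 of the 577 domains (4.51%), against 40.0% of domains with PRC2 peaks and 16.6% of those with 1 to 17 PRC2 lists. Per library, 0 to 8 domains without PRC2 peaks (0% to 1.39%, median 0.0867%) had a peak, and 2.77% to 15.4% of those with PRC2 peaks, so that the share was lower in all 18 libraries. Without replicate 2 the share over all time points was 2.25%, and without the 28 h lists 2.60%. Against domains with 1 to 17 PRC2 lists the share per library was lower in 14 libraries and higher in 4. In 9 libraries no domain without PRC2 peaks had a peak. HA-EZH1 peaks covered 0 to 774 bp per Mb of these domains and 527 to 4224 bp per Mb of chromosomes 1 to 19, and the domains were below the chromosomes in 17 of the 18 libraries. Because EZH1 is the protein of both tagged profiles, the HA lists are a further measure of the same protein, and no p is given for a share over domains chosen by PRC2 lists.

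The HA-EZH1 peaks over these domains were counted by time point. Domains with a peak in any library numbered 1, 1, 3, 10, 11 and 0 at 12, 16, 20, 24, 28 and 32 h. At 24 h the lists were long, with 12125 to 14608 peaks on chromosomes 1 to 19, and 9.97% to 11.8% of domains with PRC2 peaks had a peak, so that list length moved with this count and its part was not tested. At 28 h the lists were the shortest, with 2323 to 2572 peaks on chromosomes 1 to 19. A peak lay over 4, 8 and 5 domains (0.693%, 1.39% and 0.867%), against 2.77%, 3.63% and 3.39% of domains with PRC2 peaks. Domains with 1 to 17 PRC2 lists had 0.648%, 0.915% and 0.648%, below the domains without PRC2 peaks in each 28 h library. In 22 of the 26 domains the peak was in 1 library. Peaks of all 3 libraries of 28 h overlapped a domain of 13695 bp inside Col4a2, a collagen IV gene (chr8:11376503-11390197), and one of 12830 bp near Tcf7l2, a transcription factor of Wnt signalling (chr19:55710871-55723700). A domain of 23979 bp near Shisal1 and one of 8516 bp inside Smoc2, a matrix protein gene, had peaks in 2 libraries of 28 h, and the domain near Mpped1 in 1. H3K27me3 covered the Col4a2 domain for 71.5% to 88.0% at 16 to 32 h and for 22.3%, 27.3% and 26.9% at 12 h. A protein-coding start lay in 2 of the 26 domains.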

How the data were processed

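The deposited peak lists of 72 ChIP-seq libraries were analysed. Labels cover 78 samples, of which 6 HA inputs had no list and were not used here. The authors trimmed reads, aligned them with BWA 0.7.17 to mm10 and the spike-in genome BDGP6, removed duplicates with Picard, kept proper pairs of high mapping quality with SAMtools 1.7 and called peaks per replicate with MACS2 2.2.4. The deposited fold enrichment is the ratio of signal to the modelled background, and the deposited q-values are on the -log10 scale, with a largest q of 0.05 in narrow and 0.1 in broad (H3K27me3) lists. The study later used peaks common to the 3 replicates at an adjusted p under 0.01, a limit that the deposited lists exceed, and whether another filter was applied to them is not given in the sources used here. Spike-in factors were not used, so levels between libraries are uncalibrated. Read depth is unknown, no counting interval was computed, and the spread between replicates is the only error. SUZ12 lists were assigned from the labels, although their names point to streptavidin.

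The domains and gene lists were chosen with earlier results of these data known. Domains were called with Python 3.11.15 (NumPy 2.4.6, pandas 2.3.3). Genes came from GENCODE M21 (20807 protein-coding records on chromosomes 1 to 19, each start the 5′ end of the record), and sequence from RefSeq GRCm38.p6, whose chromosome lengths contained all peaks. A predicted record of 4435 kb, Gm20388, was the host of 4 domains. Per domain and library, the length-weighted mean fold enrichment and the share covered were computed, and limma 3.58.1 (R 4.3.3) was fitted over all domains with time point as a factor and no replicate block, adjusted p under 0.05 by Benjamini-Hochberg. The fit was tested on simulated data. The p-values measure the spread between the 3 replicates of a time point. The bases shared by a pair of H3K27me3 replicate lists over those covered by either (Jaccard index) were between 0.623 and 0.778. Pairs of 12 h were the lowest, with 0.623, 0.637 and 0.625, and later pairs had 0.728 to 0.778. Named domains were the 12 longest, the 5 with most gene starts, the 5 with HA-EZH1 peaks in most libraries (ties by length) and the 3 with the smallest adjusted p in each direction. Alternatives changed the number of lists, joining, length, q, the excluding profiles, single libraries, centring and GC bins (20), the last, the share covered and the rule without 12 h lists being chosen after seeing the data.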

Additional observations from a re-analysis of the deposited data

How the results depend on the processing

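The number of domains without PRC2 peaks (577) stayed within 1.5 times under 12 or more lists, other joining distances, PRC2 peaks of q under 0.01, SUZ12 alone and without the 12 h H3K27me3 lists (679). It was 116 with all 18 lists, 204 at 10 kb or more, 332 with H3K27me3 peaks of q under 0.01, 1049 where only PRC2 peaks overlapping in 2 or more libraries excluded and 1578 where Bio-EZH1 alone excluded. Leaving out a replicate number or a single PRC2 list gave 577 to 737. The ratio of protein-coding starts per Mb to domains with PRC2 peaks (0.690) was below 1 under every alternative. It was 0.627 with 12 or more lists, 0.276 with all 18, 0.654 joining up to 5 kb, 0.863 at 10 kb or more, 0.876 with H3K27me3 q under 0.01, 0.642 with PRC2 q under 0.01, 0.651 with no peak within 5 kb, 0.503 with Bio-EZH1 alone, 0.780 with SUZ12 alone, 0.615 without the 12 h lists, 0.767 over all gene records, 0.419 for domains of 5 to 10 kb, 0.722 for those of 10 to 20 kb and 0.640 to 0.719 without a replicate or list. The density itself was 4.26 per Mb with all 18 lists and 8.06 per Mb with Bio-EZH1 alone, below the 8.45 per Mb of chromosomes 1 to 19. Domains of 20 kb or more were not among these alternatives and had nearly equal densities, 13.3 per Mb without and 13.6 per Mb with PRC2 peaks. Against domains with 1 to 17 PRC2 lists (9.79 per Mb) the density over all lengths (10.5 per Mb) was higher, not lower. HA-EZH1 peaks lay in 0.693% of domains when required to overlap in 2 libraries, 2.60% without the 28 h lists and 2.25% to 3.99% without a replicate.

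Domains called for a change over time (439 of 474 fitted) numbered 406 of 474 at the lowest, when centred within GC bins. At the highest they numbered 534 of 577, when libraries without a peak were set to 1. Over all domains the 3 counts were 7260 of 7554, 6760 of 7554 and 7474 of 7799. Leaving out a library gave 423 to 439 called of 461 to 474 fitted. Those called higher at 16 to 32 h (295) numbered 461 without centring, 465 by the share covered and 86 when centred within GC bins, and 275 to 296 without a library. Those called lower (105) numbered 0 without centring (limma, 0 at an unadjusted p under 0.05), 16 by the share covered, 199 within GC bins and 95 to 106 without a library. By the share covered, 465 higher and 16 lower were 456 to 470 and 7 to 18 without a library, and 61 were lower within GC bins. The domain near Nefm turned to 0.067 without centring. Replicate numbers do not pair the libraries (correlation of same-numbered deviations -0.07 to 0.07), and the replicate block gave 440 changed, 296 higher and 103 lower, and 463 and 16 by the share covered. The cause of these shifts was not tested. Low fold enrichments are limited by peak calling, and depth is unknown.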
